A study of Mus musculus with 12 samples.

Results

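The heat shock chaperones described here are 10 mouse genes: Hspa1a, Hspa1b, Dnajb1, Hsph1, Hsp90aa1, Hspb1, Bag3, Hspa8, Hspd1 and Hspe1. They were chosen by name, each matched 1 of the 55421 gene IDs in the count tables, and all 10 were among the 22630 genes that passed the filter on low counts. From textbook knowledge, 7 of them are grouped as stress-induced (Hspa1a, Hspa1b, Dnajb1, Hsph1, Hsp90aa1, Hspb1, Bag3) and 3 as constitutive (Hspa8, Hspd1, Hspe1). Hsph1 and Hsp90aa1 are also known for a high basal level. The RNA came from pituitary of C57BL/6 mice that all carried loxP-flanked (floxed) alleles of the G protein-coupled receptor gene Gpr101. The genotype labels are Cga-ctrlAAVGpr101fl/fl and Cga-creAAVGpr101fl/fl, so an adeno-associated virus brought either a control cargo or cre, the recombinase that removes floxed sequence. Cga encodes the alpha subunit of glycoprotein hormones, made by gonadotrophs and thyrotrophs, and other pituitary cells are present in this bulk RNA. Mice of each genotype received vehicle or the ligand AA14 for 1 week. The 4 groups of 3 libraries are called ctrl_vehicle, ctrl_AA14, cre_vehicle and cre_AA14. Per the series' design text, pituitaries were dispersed into single cells before RNA was taken. Neither age nor sex is given in the labels, and whether each library stands for its own mouse is not stated, so p-values reflect only how much these libraries vary, which may be technical.

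Heat shock proteins are chaperones: they bind unfolded proteins, prevent clumping and help refolding, at the cost of ATP for the HSP70, HSP90 and HSP60 classes. When unfolded proteins accumulate, heat shock factor 1, the protein made from Hsf1, is released from chaperones, forms trimers and binds heat shock elements, which are repeats of the unit NGAAN in alternating orientation. Transcription of the inducible genes then climbs within minutes to hours, while constitutive relatives such as Hspa8 serve everyday folding, and secretory tissues such as the pituitary also depend on separate chaperones of the endoplasmic reticulum.

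The promoter sequences below show how alike the inducible HSP70 pair is and where heat shock elements lie beside other members. They are RefSeq promoter windows on GRCm38.p6, cut to the 250 bases before the start for whole windows and to 30 bases where only the element is shown, written 5′ to 3′ on the strand of the gene. Capitals mark matches to a heat shock element. The windows were searched on both strands for 2 alternating units (GAANNTTC or TTCNNGAA) and 3 alternating units (GAANNTTCNNGAA or TTCNNGAANNTTC). A 2-unit match lies within every 3-unit match. Among all 32851 RefSeq windows of this length, 12.8% held a 2-unit match and 0.466% a 3-unit match. RefSeq entries were found for 8 of the 10 members, all but Hspa8 and Hsp90aa1.
Hspa1a (chr17:34972157-34972406, minus strand): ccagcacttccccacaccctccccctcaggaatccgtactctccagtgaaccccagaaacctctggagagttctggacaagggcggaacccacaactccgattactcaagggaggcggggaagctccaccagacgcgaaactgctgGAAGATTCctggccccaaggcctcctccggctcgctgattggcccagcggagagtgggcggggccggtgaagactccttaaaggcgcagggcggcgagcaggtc
Hspa1b (chr17:34959239-34959488, minus strand): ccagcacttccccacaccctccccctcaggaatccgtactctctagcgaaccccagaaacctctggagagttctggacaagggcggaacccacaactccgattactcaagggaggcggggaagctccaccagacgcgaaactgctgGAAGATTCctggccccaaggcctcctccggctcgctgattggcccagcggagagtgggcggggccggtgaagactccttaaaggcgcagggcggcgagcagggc
Hspb1 (chr5:135887669-135887918, plus strand): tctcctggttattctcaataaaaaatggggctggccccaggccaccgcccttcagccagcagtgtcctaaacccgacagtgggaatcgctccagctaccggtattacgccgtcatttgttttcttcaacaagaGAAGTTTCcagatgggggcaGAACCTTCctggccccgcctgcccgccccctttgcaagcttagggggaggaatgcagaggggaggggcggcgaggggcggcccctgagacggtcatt
Hsph1 (chr5:149636351-149636380, minus strand): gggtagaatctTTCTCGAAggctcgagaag
Hspe1 (chr1:55088053-55088082, plus strand): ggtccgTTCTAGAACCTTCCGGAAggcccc

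The Hspa1a and Hspa1b windows differ at 3 of 250 bases, and each holds a single 2-unit match, GAAGATTC, at positions -104 to -97 from the start. Hspb1 holds GAAGTTTC at -117 to -110 and GAACCTTC at -97 to -90. The Hsph1 window has TTCTCGAA at -33 to -26 of the start used here (149636336), and at -54 to -47 of another listed start (149636315). The site lies inside the gene as annotated, whose 5′ end is at 149636376. Hspd1 and Hspe1 lie head to head on chromosome 1 and share the stretch shown for Hspe1, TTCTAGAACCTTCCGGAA at -89 to -72, which contains 2 overlapping 3-unit matches and was the only 3-unit element among the windows of the 8 members. For Hspd1 it lies before the listed start at 55087932, inside the gene as annotated. The window before the other Hspd1 start, at 55088243, held no match. A match was found in neither the Dnajb1 nor the Bag3 windows, which says only that these letters are not in the stretch searched. A match describes sequence and was not tested for binding.

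Totals ranged from 48693682 to 73388221 counts per library. Values are CPM, which put a gene's counts on a scale common to libraries of unequal depth. The tissue label was met by its markers: the 7 pituitary hormone genes Gh, Prl, Pomc, Tshb, Lhb, Fshb and Cga summed to between 168501 and 319522 CPM. Gpr101, the targeted gene, was low throughout, at 1.22 to 16.1 CPM in the 6 control-virus libraries and 0.901 to 4.29 CPM in the 6 cre libraries, ranges that overlap. Libraries also stood apart in ways the labels do not give. Malat1, a nuclear RNA, was at 1105 to 1560.4 CPM in 5 libraries (all of ctrl_AA14, cre_vehicle 1 and cre_AA14 2) and at 199 to 549 CPM in the other 7. The 8 oligodendrocyte markers summed to 2390 CPM in ctrl_vehicle 3 and 3321 CPM in cre_vehicle 2, to 754 CPM in ctrl_AA14 1, to 465 CPM in cre_AA14 1 and to 69.5 to 164 CPM in the other 8.

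Among the members, Hspa8 was the most abundant transcript, and the inducible HSP70 pair was the least abundant in a typical library and by far the most variable. Per kilobase of exon, the median level over 12 libraries was 278 CPM for Hspa8 (range 145 to 348) and 120.3 CPM for Hsp90aa1 (range 83.5 to 159), so that these ranges touch at their ends. Next on this scale came Hspd1 at 59.0 and Hspe1 at 58.3 CPM per kilobase, whose ranges of 50.5 to 68.2 and 51.4 to 83.4 overlap. Hspb1 followed at 33.9, Hsph1 at 20.4, Dnajb1 at 20.4 and Bag3 at 16.7 CPM per kilobase, again with overlapping ranges. Hspa1a and Hspa1b had medians of 4.02 and 3.43 CPM per kilobase, yet reached 242 and 272 in their highest library, values within the range of Hspa8 on this scale. The scale uses all annotated exons of a gene merged. For Hspa8 this gives 4301 bp, against 2394 bases in its longest coding transcript, and on the shorter length its values would be higher.

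The members also differed widely in spread. The pooled within-group SD of log2 CPM was 2.45 for Hspa1b and 2.35 for Hspa1a, larger than that of 99.9% of the 22630 genes tested. It was 1.02 for Dnajb1 (larger than 97.2% of genes), 0.88 for Bag3 (96.0%) and 0.68 for Hspb1 (92.2%). Hsph1 at 0.45 and Hsp90aa1 at 0.26, both listed as stress-induced, lay instead near the constitutive Hspa8 at 0.41. The mitochondrial pair was the most even, with 0.17 for Hspe1 and 0.12 for Hspd1, the latter larger than only 3.48% of genes. The highest library exceeded the lowest 352-fold for Hspa1b and 234-fold for Hspa1a, but 1.35-fold for Hspd1.

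**Figure D1:**
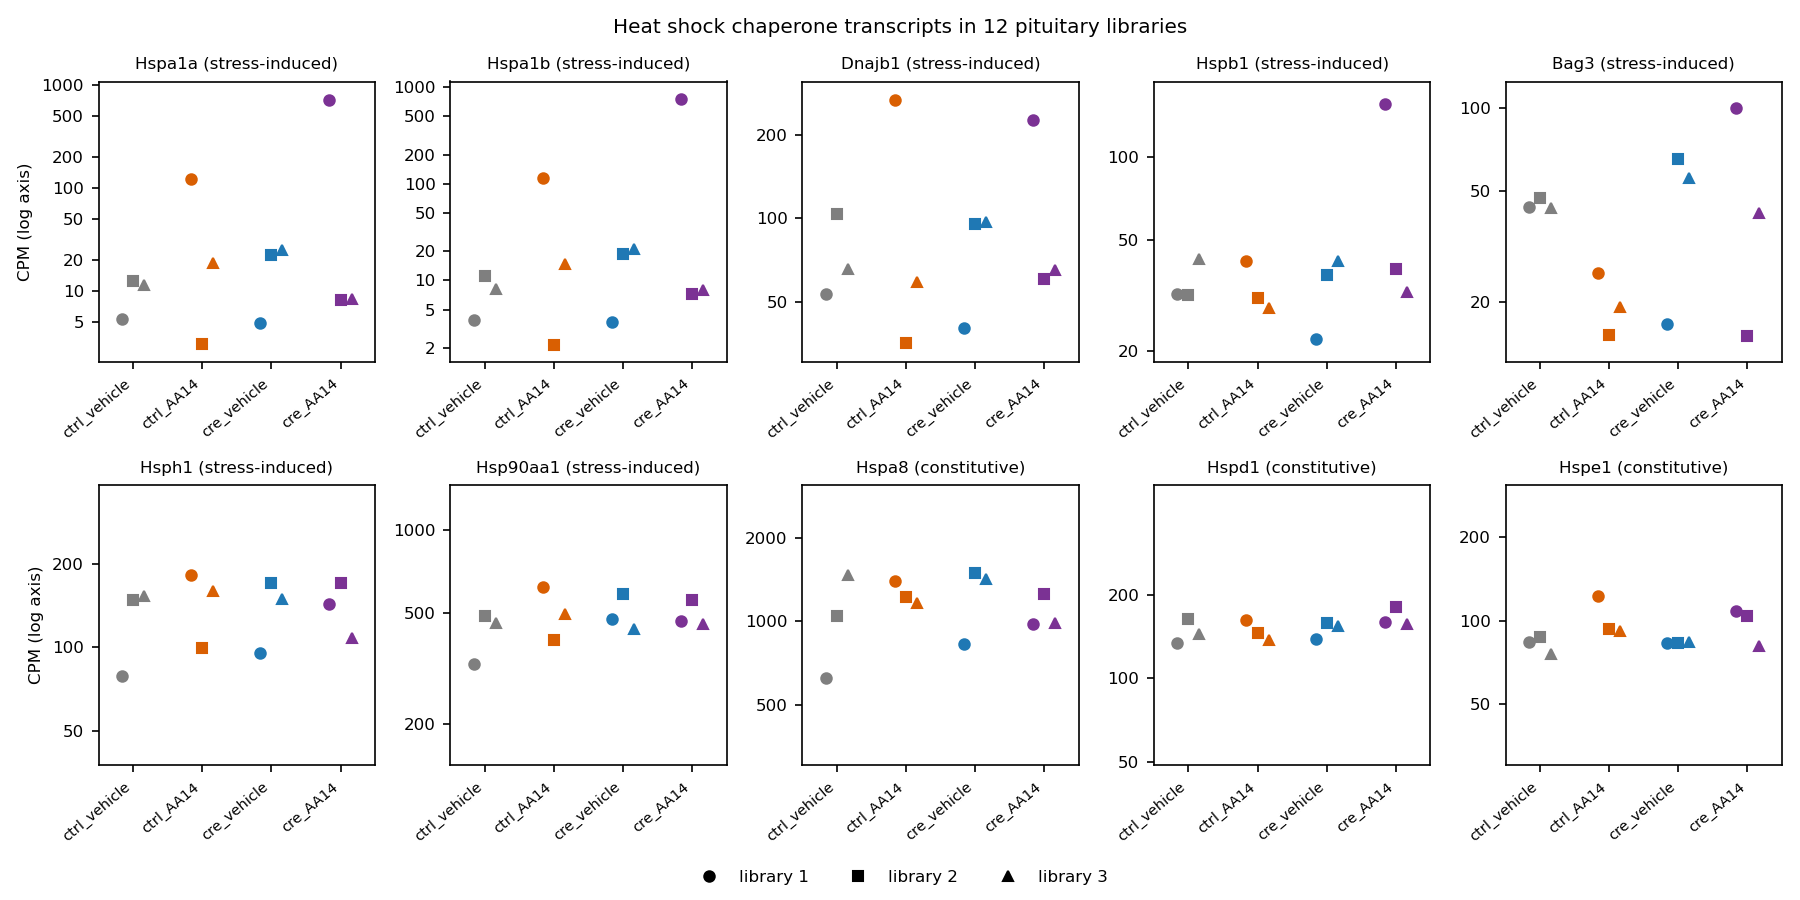
CPM of each of the 10 heat shock chaperone transcripts in 12 pituitary libraries, on log axes that differ between panels, by group, with 1 point per library and the shape giving the library number. Hspa1a and Hspa1b stand far above the rest in ctrl_AA14 1 and cre_AA14 1, while the Hspd1 points stay between 133 and 180.3 CPM.

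Hspa1a and Hspa1b encode the inducible HSP70 proteins, the main ATP-driven refolding machines made under stress. Hspa1a (ENSMUSG00000091971, chromosome 17, 34969190 to 34972156, 1 exon) was in ctrl_vehicle at 5.28, 12.6 and 11.3 CPM, in ctrl_AA14 at 122, 3.06 and 18.8 CPM, in cre_vehicle at 4.83, 22.2 and 24.9 CPM and in cre_AA14 at 717, 8.05 and 8.34 CPM. Hspa1b (ENSMUSG00000090877, chromosome 17, 34956436 to 34959238, 1 exon) was at 3.90, 11.0 and 8.19 CPM, 115, 2.16 and 14.8 CPM, 3.70, 19.0 and 21.2 CPM, and 762, 7.32 and 7.92 CPM in the same order. A single library of each AA14 group was high, and the other 10 libraries spread over both treatments and both viruses, between 3.06 and 24.9 CPM for Hspa1a. Against the median of those 10, Hspa1a was 12.5-fold higher in ctrl_AA14 1 and 73.2-fold higher in cre_AA14 1, and Hspa1b was 14.3-fold and 94.5-fold higher. The lowest library of all for both genes, ctrl_AA14 2, belongs to the same group as one of the high ones. The means ± SD (n = 3) of Hspa1a were 9.71 ± 3.89 CPM in ctrl_vehicle, 48.0 ± 64.8 in ctrl_AA14, 17.3 ± 10.9 in cre_vehicle and 244 ± 409 in cre_AA14, so that in both AA14 groups the SD exceeded the mean.

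The pair is nearly the same gene copied: the coding sequences of Hspa1a (1926 bases) and Hspa1b (1929 bases) were 99.4% identical, and 38.1% of the 150-base windows of the Hspa1a transcript occurred unchanged in Hspa1b. The handling of reads that match both is unknown here, so the split between them is uncertain. Hspa1a took between 48.5% and 58.6% of the pair's CPM in every library, and the sum of both ran from 5.22 CPM in ctrl_AA14 2 to 1479 CPM in cre_AA14 1. Hspa1a also shares 564 bp of exon with Gm20481 on the other strand, and the strand setting is not given. No 150-base window of Hspa1a occurred in Hspa8, whose coding sequence was 74.1% identical.

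Dnajb1 encodes a J-domain protein of the HSP40 class, which hands clients to HSP70 and triggers its ATP cleavage. It (ENSMUSG00000005483, chromosome 8, 83608193 to 83612653) was in ctrl_vehicle at 53.5, 104 and 65.3 CPM, in ctrl_AA14 at 266, 35.5 and 58.8 CPM, in cre_vehicle at 40.3, 95.4 and 96.9 CPM and in cre_AA14 at 226, 60.3 and 65.1 CPM. The same libraries were high as for the HSP70 pair, but here ctrl_AA14 1 was the higher of them, at 4.23-fold the median of the other 10 against 3.61-fold for cre_AA14 1.

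Hspb1 encodes a small heat shock protein that holds unfolded proteins without ATP. It (ENSMUSG00000004951, chromosome 5, 135887919 to 135889563) was in ctrl_vehicle at 32.0, 31.6 and 42.9 CPM, in ctrl_AA14 at 42.2, 31.0 and 28.4 CPM, in cre_vehicle at 22.0, 37.4 and 42.2 CPM and in cre_AA14 at 154, 39.4 and 32.5 CPM. Only cre_AA14 1 stood out, at 4.78-fold the median of the other 10, while ctrl_AA14 1 was at 1.31-fold, inside the range of the rest.

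Bag3 encodes a co-chaperone that releases nucleotide from HSP70 and links it to small heat shock proteins and autophagy. It (ENSMUSG00000030847, chromosome 7, 128523616 to 128546981) was in ctrl_vehicle at 44.0, 47.4 and 43.7 CPM, in ctrl_AA14 at 25.3, 15.2 and 19.1 CPM, in cre_vehicle at 16.6, 65.2 and 55.6 CPM and in cre_AA14 at 100.2, 15.1 and 41.8 CPM. It was highest in cre_AA14 1, at 2.34-fold the median of the 10 libraries other than the high HSP70 ones, but below that median in ctrl_AA14 1, at 0.593-fold. The 5 libraries with high Malat1 held the 5 lowest Bag3 values, 15.1 to 25.3 CPM against 41.8 to 100.2 CPM in the other 7. Of the 10 members only Bag3 divided fully in this way (10%), beside 22.4% of all genes tested (13.1% lower and 9.23% higher in those 5 libraries). Dnajb1 had 4 of its 5 lowest values there, and Hspe1 4 of its 5 highest. The part of this library state in the Bag3 values was not tested.

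The remaining stress-induced members, Hsph1 and Hsp90aa1, were highest in ctrl_AA14 1 but not raised in cre_AA14 1, the highest library of the HSP70 pair. Hsph1 (ENSMUSG00000029657, chromosome 5, 149614287 to 149636376) encodes HSP110, a nucleotide exchange factor of HSP70, and ranged from 79.0 CPM in ctrl_vehicle 1 to 183 CPM in ctrl_AA14 1, with a median of 148 CPM. In cre_AA14 1, where Hspa1a was at 717 CPM, Hsph1 was at 143 CPM, 0.967-fold the median of the other 10. Hsp90aa1 (ENSMUSG00000021270, chromosome 12, 110690605 to 110702728) encodes the inducible cytosolic HSP90, which matures kinases and steroid receptors. It ranged from 328 CPM in ctrl_vehicle 1 to 623 CPM in ctrl_AA14 1, with 470.2 CPM in cre_AA14 1. The high HSP70 libraries were thus not high in every stress-induced member: of the 7, ctrl_AA14 1 had the highest value of the 12 libraries for Dnajb1, Hsph1 and Hsp90aa1, and cre_AA14 1 for Hspa1a, Hspa1b, Hspb1 and Bag3.

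**Figure D2:**
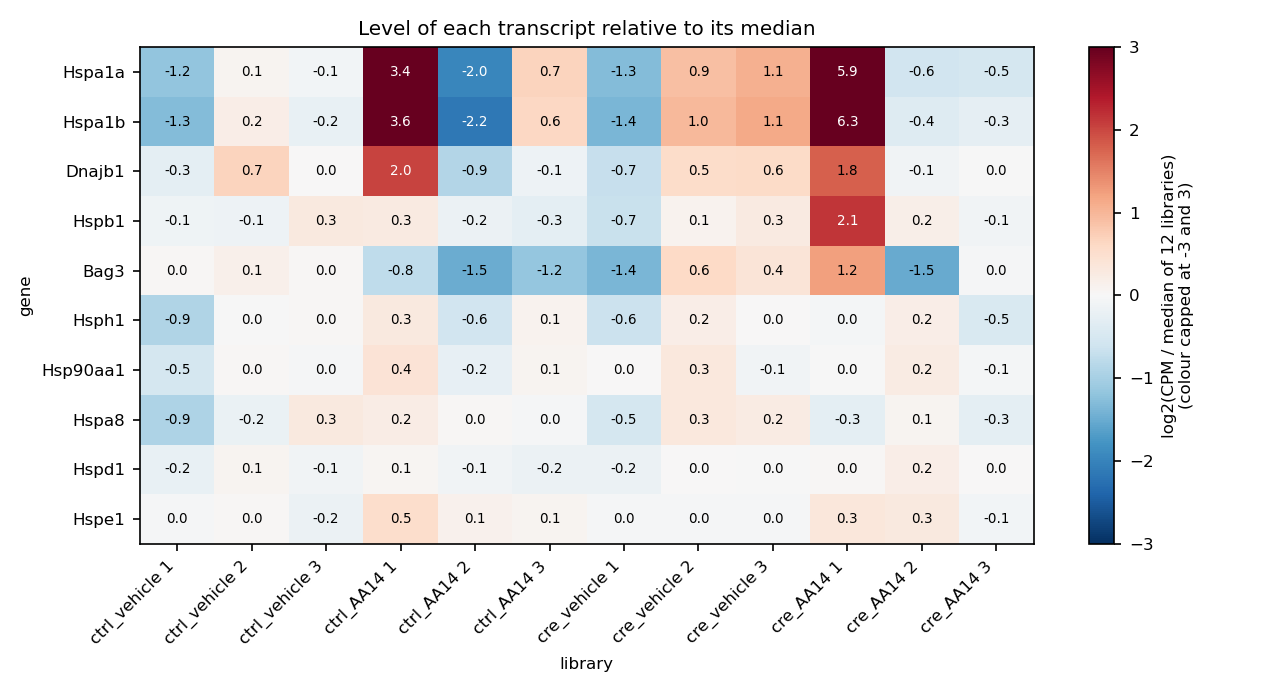
Log2 ratio of each transcript's CPM to its median over the 12 libraries, as coloured and numbered cells, with genes in rows and libraries in columns (colour capped at -3 and 3). The columns ctrl_AA14 1 and cre_AA14 1 are dark for Hspa1a, Hspa1b and Dnajb1, and the rows of Hspd1 and Hspe1 are nearly colourless.

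The constitutive members varied at most 2.40-fold between libraries. Hspa8 (ENSMUSG00000015656, chromosome 9, 40800984 to 40810087), the everyday cytosolic HSP70 that also strips clathrin from vesicles, was in ctrl_vehicle at 626, 1041 and 1468 CPM, in ctrl_AA14 at 1401, 1228 and 1161 CPM, in cre_vehicle at 830.2, 1499 and 1417 CPM and in cre_AA14 at 982, 1255 and 982 CPM. Its lowest values, in ctrl_vehicle 1 and cre_vehicle 1, fell in both vehicle groups, and all 4 groups overlapped. The libraries with the most oligodendrocyte marker RNA, cre_vehicle 2 and ctrl_vehicle 3, had the highest values. The order did not hold throughout: cre_vehicle 3, with 157 CPM of those markers, was at 1417 CPM. With more marker RNA, ctrl_AA14 1 (754 CPM) was at 1401 CPM and cre_AA14 1 (465 CPM) at 982 CPM. The part of those cells was not tested. The gene hosts small nucleolar RNAs (Snord14c, Snord14d and Snord14e), which cover 262 bp of its exons as annotated. Per kilobase of merged exons, Hspa8 exceeded Hspa1a 39.2-fold to 277-fold in 10 libraries and 7.91-fold in ctrl_AA14 1, and was at 0.944-fold in cre_AA14 1. The merged length of Hspa8 is 4301 bp, against 2394 bases in its longest coding transcript, which would give higher ratios. Near equality in cre_AA14 1 thus depends on the length used.

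Hspd1 and Hspe1 encode the mitochondrial chaperonin HSP60 and its lid HSP10, which together enclose a client for folding. Hspd1 (ENSMUSG00000025980, chromosome 1, 55077835 to 55088243) was in ctrl_vehicle at 133, 164 and 144 CPM, in ctrl_AA14 at 162, 146 and 138 CPM, in cre_vehicle at 138, 158 and 155 CPM and in cre_AA14 at 159.6, 180.3 and 157 CPM. Hspe1 (ENSMUSG00000073676, chromosome 1, 55088132 to 55091307) was at 84.1, 87.7 and 75.8 CPM, 123, 93.9 and 91.6 CPM, 83.5, 83.5 and 84.0 CPM, and 109, 105 and 80.9 CPM in the same order. The ctrl_AA14 values of Hspe1 all lay above those of ctrl_vehicle, whereas the Hspd1 values of these groups overlapped. The highest Hspe1 values were those of the high HSP70 libraries, 123 CPM in ctrl_AA14 1 and 109 CPM in cre_AA14 1, which has low Malat1. The other 10 libraries were at 75.8 to 105 CPM. All 3 ctrl_AA14 libraries are of high Malat1, and the 5 libraries of high Malat1 held 4 of the 5 highest Hspe1 values. The part of that state in the Hspe1 values was not tested. The genes share 112 bp of exon on opposite strands. Per kilobase, the ratio of Hspd1 to Hspe1 stayed between 0.734 and 1.08, lowest in ctrl_AA14 1.

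As a share of the stress-induced total, the HSP70 pair went from 0.891% in ctrl_AA14 2 to 17.2% in ctrl_AA14 1 and 57.5% in cre_AA14 1. The 7 stress-induced members summed to between 546 and 2573 CPM per library and the 3 constitutive members to between 843 and 1740 CPM. In cre_AA14 1 the stress-induced sum of 2573 CPM exceeded the constitutive sum of 1250.1 CPM, the only library where it did.

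Immediate-early genes, which encode transcription factors such as Fos and feedback regulators such as Dusp1 and are switched on within minutes of many stimuli and of tissue dissociation, were high in some of the same libraries. The summed level of 18 such genes was 7545 CPM in cre_AA14 1, 2802 CPM in ctrl_vehicle 1, 1902 CPM in ctrl_AA14 1 and 652 to 1416 CPM in the other 9. Fos was at 662 CPM in cre_AA14 1 and 153 CPM in ctrl_AA14 1, and Atf3 at 175 CPM in cre_AA14 1 but 0.758 to 3.59 CPM in the other 11 libraries. The order of the sums was not that of the HSP70 pair: in ctrl_vehicle 1 Fos was at 233 CPM and Egr1 at 584 CPM, above their ctrl_AA14 1 levels of 153 and 303 CPM, while Hspa1a was at 5.28 CPM. All 18 genes were found and none was at 0 in all libraries. The part of this state in the HSP70 values was not tested. Among other cell types, the summed red cell markers (5 genes) ranged from 778 CPM in cre_AA14 1 to 7782 CPM in cre_vehicle 2. The sums of endothelial markers (134 to 218 CPM, 7 genes), macrophage markers (111 to 212 CPM, 7 genes), pituicyte and astrocyte markers (113 to 716 CPM, 7 genes) and skeletal muscle markers (1.55 to 4.48 CPM, 5 genes) in the high HSP70 libraries lay within the range of the others, except that the lowest muscle sum was that of cre_AA14 1 and the lowest endothelial sum that of ctrl_AA14 1.

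**Figure D3:**
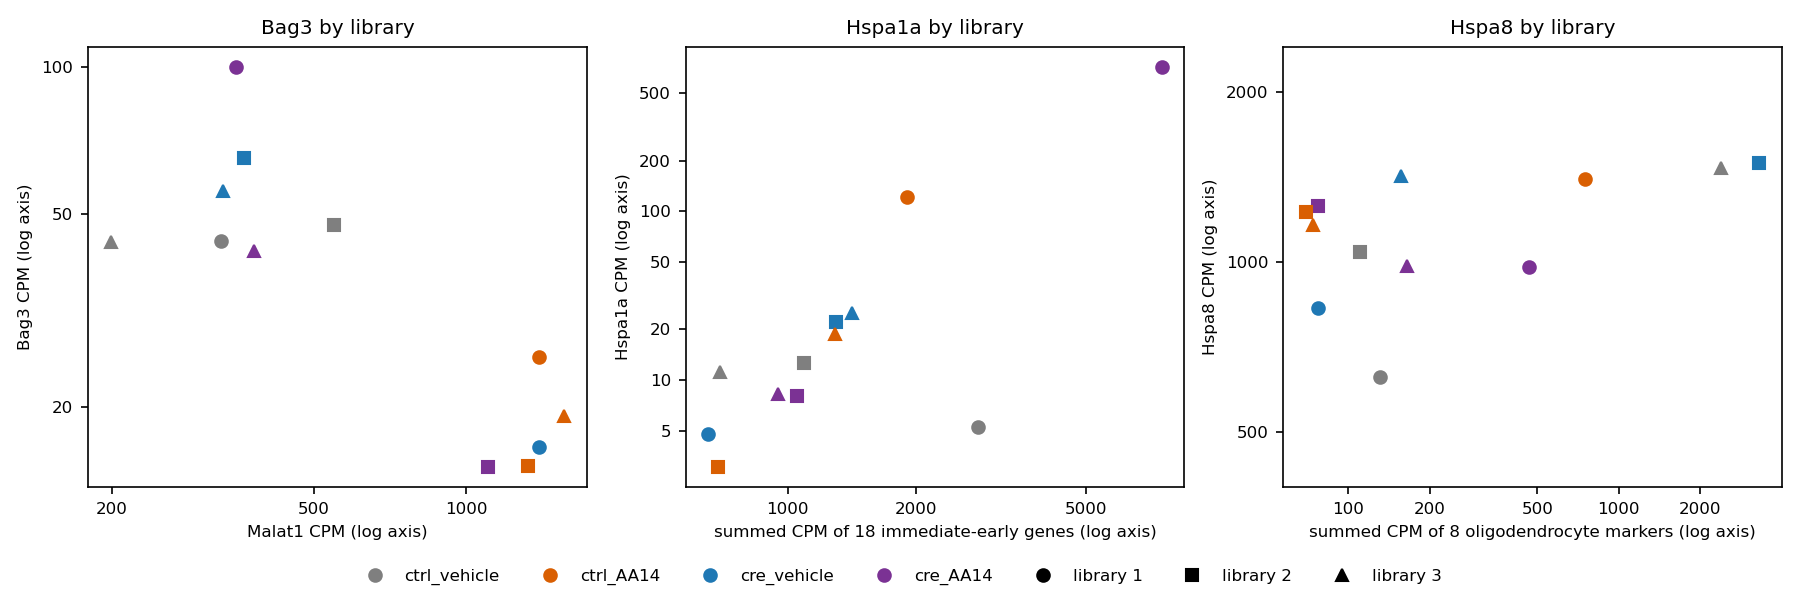
Member levels beside library state, 1 point per library and log axes: Bag3 against Malat1, Hspa1a against the summed CPM of 18 immediate-early genes, and Hspa8 against the summed CPM of 8 oligodendrocyte markers. Bag3 is at 15.1 to 25.3 CPM in the 5 libraries of high Malat1, and ctrl_vehicle 1 combines an immediate-early sum of 2802 CPM with 5.28 CPM of Hspa1a.

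No member passed the test in any of the 5 comparisons of groups. The fits used edgeR's quasi-likelihood test over all genes, with Benjamini-Hochberg adjusted p-values and a threshold of 0.05. DESeq2 and limma-voom with quality weights, run as alternatives, also called no member. Of all genes, however, DESeq2 called 2162 and limma-voom 3409 between ctrl_AA14 and ctrl_vehicle, where edgeR called 1. DESeq2 gave no p-value for Hspa1a and Hspa1b in the AA14 comparison with the control virus, so it could not call them there. Comparisons that share a group share its libraries, so their values are given side by side only. In the comparison of ctrl_AA14 with ctrl_vehicle, which asks what AA14 does with the control virus, 0 of 10 members were called beside 0.00442% of all genes (1 gene), and 0 of 10 had an unadjusted p under 0.05 in edgeR beside 23.8% of all genes. The groups did not overlap for 2 of 10 members, Bag3 (lower with AA14) and Hspe1 (higher with AA14), beside 17.6% of all genes higher and 20.1% lower, together 37.7%. The members' median log2 fold change was 0.26, beside -0.02 over all genes, with 8 of 10 above 0 beside 49.1% of all genes.

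For Hspa1a in this comparison the log2 fold change was 2.31 with a standard error (SE) of 1.59 and a 95% interval from -1.18 to 5.80 (edgeR adjusted p = 0.392). Without ctrl_AA14 1 it was 0.15. For Hspa1b the value was 2.51 (SE 1.67, edgeR adjusted p = 0.374), and 0.12 without that library. The value for Dnajb1 was 0.69 (SE 0.72, edgeR adjusted p = 0.583) and turned to -0.67 without ctrl_AA14 1. The intervals of the HSP70 pair are wide enough to hold a large difference in either direction.

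Bag3 had the lowest value, -1.18 (SE 0.59, 95% interval -2.48 to 0.13, edgeR adjusted p = 0.247). It lay between -1.41 and -1.03 whichever library was left out, and passed the threshold when only the libraries of these groups were fitted (edgeR adjusted p = 0.0227). That fit called 2266 genes in all, against 1 in the main fit, so the pass does not set Bag3 apart. Over the alternatives tried, the adjusted p of Bag3 ran from 0.0227 to 0.450. All 3 ctrl_AA14 libraries are among the 5 with high Malat1, so in this comparison AA14 and that library state cannot be told apart. In the cre libraries of high Malat1, Bag3 was at 16.6 CPM (cre_vehicle 1) and 15.1 CPM (cre_AA14 2). In those of low Malat1 it was at 65.2 and 55.6 CPM in cre_vehicle and at 100.2 and 41.8 CPM in cre_AA14. The parts of AA14 and of that state in these values were not tested.

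The other members had values nearer to 0, with intervals of unequal width. Hspe1 had 0.32 (SE 0.15, 95% interval -0.02 to 0.66, edgeR adjusted p = 0.235), and 0.15 without ctrl_AA14 1, its highest library. As for Bag3, AA14 and high Malat1 cannot be told apart in this comparison. Hspa8 had 0.27 (SE 0.29, 95% interval -0.36 to 0.91), Hsp90aa1 0.25 (SE 0.20) and Hsph1 0.22 (SE 0.31). Without ctrl_vehicle 1, the library lowest in all 3, these were 0.010, 0.094 and -0.029. Without ctrl_AA14 1 they were 0.17, 0.058 and 0.018, and without ctrl_vehicle 3 Hspa8 was 0.60. With limma-voom Hspa8 was 0.56 (unadjusted p = 0.0189, adjusted p = 0.0840), and its adjusted p ran from 0.0840 to 0.986 over the alternatives tried. Hspb1, at -0.07 (SE 0.50), and Hspd1, at 0.01 (SE 0.13), were closest to 0. For Hspd1 the 95% interval from -0.27 to 0.29 sets a narrow limit on any difference, while the interval of Hspb1 from -1.16 to 1.02 does not.

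The comparison of cre_AA14 with cre_vehicle asks the same after the cre virus. Here 0 of 10 members were called beside 0% of all genes, and 3 of 10 (Hspa1a, Hspa1b and Hspb1, all higher with AA14) had an unadjusted p under 0.05 beside 2.29% of all genes (1.2% higher). All 3 rest on cre_AA14 1. The log2 fold change of Hspa1a was 3.82 (SE 1.69, edgeR unadjusted p = 0.0449, adjusted p = 0.9999), and -1.09 without that library. For Hspa1b it was 4.14 (SE 1.79, edgeR unadjusted p = 0.0401, adjusted p = 0.9999), and -0.95 without it. For Hspb1 it was 1.15 (SE 0.50, edgeR unadjusted p = 0.0417, adjusted p = 0.9999), and 0.07 without it. Dnajb1 had 0.60 (SE 0.72) and Bag3 0.19 (SE 0.59), and without cre_AA14 1 these were -0.32 and -0.70. Among the constitutive members, Hspa8 had -0.22 (SE 0.29), Hspd1 0.14 (SE 0.13) and Hspe1 0.23 (SE 0.15). No member had groups that did not overlap, beside 5.86% of all genes.

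Whether the AA14 difference itself differed between the viruses was tested as an interaction, in which 0 of 10 members were called beside 0.00442% of all genes, and 0 of 10 had an unadjusted p under 0.05 in edgeR beside 7.03% of all genes. The difference in log2 fold change (cre minus control virus) was 1.51 for Hspa1a (SE 2.16, edgeR adjusted p = 0.827), 1.63 for Hspa1b (SE 2.25), 1.22 for Hspb1 (SE 0.70), 1.37 for Bag3 (SE 0.83) and -0.49 for Hspa8 (SE 0.41). For Hspa1a it was 3.66 without ctrl_AA14 1 and -3.39 without cre_AA14 1, so its sign depended on which high library was kept.

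Between the viruses under vehicle, 0 of 10 members were called beside 0.00442% of all genes, and 0 of 10 had an unadjusted p under 0.05 in edgeR beside 2% of all genes. The values ran from -0.07 for Hspb1 (SE 0.50) to 0.93 for Hspa1b (SE 1.60), the members' groups all overlapped (beside 4.92% of all genes that did not), and the targeted receptor transcript itself was low in both groups. Between the viruses under AA14, 0 of 10 were called beside 0% of all genes. Hspb1, at 1.15 (SE 0.50, edgeR unadjusted p = 0.0416, adjusted p = 0.582), and Bag3, at 1.40 (SE 0.60, edgeR unadjusted p = 0.0387, adjusted p = 0.582), were the 2 of 10 with an unadjusted p under 0.05 (higher after cre), beside 8.52% of all genes (7.08% higher). Without cre_AA14 1 they were 0.09 and 0.52. Hspa1a was at 2.35 (SE 1.59) and Hspa1b at 2.56 (SE 1.66), and at -2.55 and -2.53 without that library. The groups of no member were apart, beside 14.1% of all genes. All ctrl_AA14 libraries are of high Malat1, but of the cre_AA14 libraries only cre_AA14 2 is. The part of that state in the Bag3 value of this comparison was not tested.

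**Figure D4:**
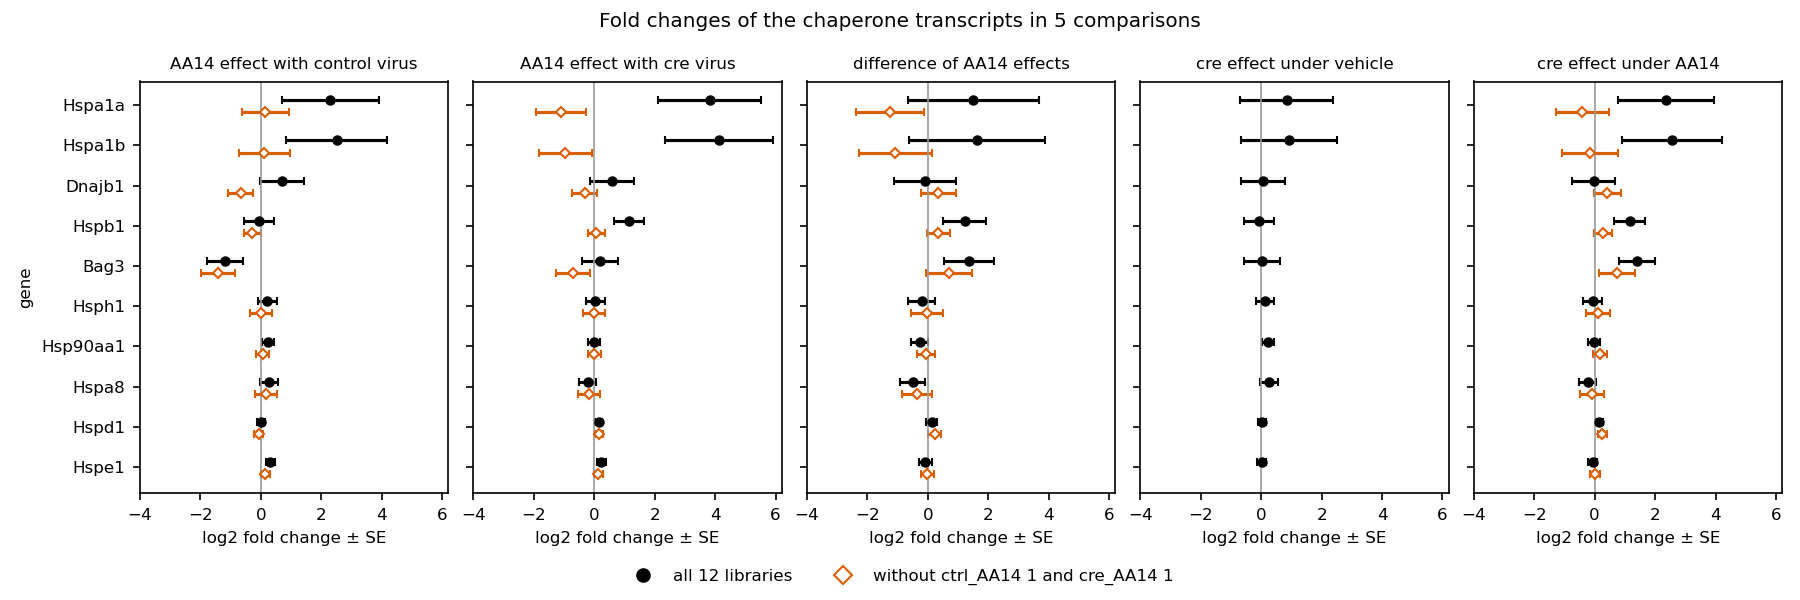
Log2 fold change ± SE of the 10 transcripts in the 5 comparisons (edgeR), with all 12 libraries as filled points and, except for the vehicle comparison, without ctrl_AA14 1 and cre_AA14 1 as open diamonds. The Hspa1a and Hspa1b points move from 3.82 and 4.14 to -1.09 and -0.95 in the AA14 comparison after cre virus, and the Hspe1 point in the AA14 comparison with the control virus moves from 0.32 to 0.15.

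The wider chaperone network was described with 73 other genes, of which 72 were tested (Hspb7, a small heat shock protein, did not pass the low-count filter). None was called in any of the 5 comparisons. In the AA14 comparison with the control virus, 7 of the 72 had an unadjusted p under 0.05 and were higher and 15 were lower, together 30.6%, beside 8.03% and 15.8% of all genes, and the lowest edgeR adjusted p was 0.141. Their median log2 fold change was 0.06. In the AA14 comparison after the cre virus 0 of the 72 had an unadjusted p under 0.05 in edgeR, beside 2.29% of all genes. By library state, 19 of the 72 (26.4%) divided fully between the 5 libraries of high Malat1 and the other 7. Of these, 8 were higher and 11 lower, and the share is near the 22.4% of all genes. Since all 3 ctrl_AA14 libraries are of high Malat1, and 1 each of cre_vehicle and cre_AA14, this state also moves with the comparison of the viruses under AA14. Its part in the values that follow was not tested. Many of the genes named below were picked for a small unadjusted p in edgeR. A pick from ctrl_AA14 against ctrl_vehicle, all of high and all of low Malat1, favours genes that divide by Malat1. Their division is therefore no separate finding, and the share over the whole list is the one given above.

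In the libraries of high HSP70, Hsf1 and Hsf2 lay within the range of the other libraries. Hsf1, the master activator, was at 22.2 to 35.4 CPM over the 12 libraries, with 26.4 CPM in ctrl_AA14 1 and 24.3 CPM in cre_AA14 1. Hsf2, a partner that forms mixed trimers with it, was at 24.2, 21.4 and 18.9 CPM in ctrl_vehicle and 27.1, 28.4 and 40.8 CPM in ctrl_AA14, a log2 fold change of 0.58 (SE 0.22, edgeR unadjusted p = 0.0238, adjusted p = 0.162). It divided by Malat1, at 26.0 to 40.8 CPM in the 5 libraries of high Malat1 and at most 24.2 CPM in the other 7. All 5 factors on the list, which includes the inhibitor Hsbp1, had values above 0 in that comparison, beside 49.1% of all genes. Of these, Hsf5 averaged only 0.141 CPM, and only Hsf2 had an edgeR unadjusted p under 0.05.

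Among other HSP70 and HSP110 proteins, 4 of 11 had values above 0 and 7 below 0 in the AA14 comparison with the control virus. Hspa9, the mitochondrial HSP70, was at 186, 213 and 207 CPM in ctrl_vehicle and 161, 157 and 137 CPM in ctrl_AA14, a log2 fold change of -0.41 (SE 0.13, edgeR adjusted p = 0.141). In the 5 libraries of high Malat1 it was at 137 to 182 CPM, below the 186 to 236 CPM of the other 7. Hyou1, an HSP110 of the endoplasmic reticulum, had -0.58 (SE 0.22), and Hspa2, an HSP70 best known from testis, -0.77 (SE 0.29). Hspa2 divided by Malat1 too, at 15.7 to 23.7 against 26.5 to 43.1 CPM. Between the viruses under AA14 these were 0.44 (SE 0.13), 0.70 (SE 0.22) and 0.80 (SE 0.29), each higher after cre, with edgeR adjusted p = 0.582. Hspa5, the HSP70 of the endoplasmic reticulum known as BiP, ranged from 567 to 1078 CPM and had no unadjusted p under 0.05 in edgeR in the 5 comparisons.

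Hsp90ab1, the constitutive cytosolic HSP90, ranged from 799 to 1256 CPM, and Hsp90b1, its endoplasmic reticulum relative, was at 893, 849 and 560.0 CPM in ctrl_vehicle and 1106, 1126 and 935 CPM in ctrl_AA14 (log2 fold change 0.46, SE 0.20, edgeR adjusted p = 0.196). Hsp90b1 was at 935 to 1126 CPM in the 5 libraries of high Malat1 and at most 899 CPM in the other 7. Of 15 other J-domain genes, 5 had values above 0 and 10 below 0 in that comparison. Dnajb2, a neuronal J-domain protein that sorts ubiquitinated clients, had -0.73 (SE 0.20, edgeR adjusted p = 0.141), with 35.4 to 56.6 CPM at high Malat1 against 63.1 to 80.6 CPM. Dnaja1, a close partner of Hspa8, was at 378 CPM in ctrl_AA14 1, its highest value, but also at 377 CPM in cre_AA14 2 and 349 CPM in ctrl_AA14 3. In cre_AA14 1 it was at 289 CPM, and its lowest value was 214 CPM.

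Of the small heat shock proteins, Cryab and Hspb8 were highest in ctrl_vehicle 3, at 47.4 and 44.0 CPM, a library with 2390 CPM of oligodendrocyte markers and 716 CPM of pituicyte and astrocyte markers. In cre_AA14 1, where Hspb1 was at 154 CPM, Cryab was at 11.6 CPM and Hspb8, the direct partner of Bag3, at 25.8 CPM. In the AA14 comparison with the control virus Hspb8 had -1.32 (SE 0.53, edgeR adjusted p = 0.173). It was also divided by Malat1, at 7.71 to 12.7 CPM in the 5 libraries of high Malat1 against 13.7 to 44.0 CPM in the other 7. The parts of other cell types and of that state in these values were not tested, and in bulk RNA fewer cells of a type and less RNA per cell cannot be told apart.

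Among 17 co-chaperones, 10 had values above 0 and 7 below 0 in the same comparison. Ahsa2, an activator of HSP90, had 0.95 (SE 0.28, edgeR adjusted p = 0.141), Chordc1, an HSP90 partner, 0.61 (SE 0.24), Bag1 -0.91 (SE 0.28) and Fkbp5, an HSP90-bound regulator of steroid receptors, -0.67 (SE 0.23). Over the whole list the groups did not overlap for 3 genes that were higher and 4 that were lower with AA14, beside 17.6% and 20.1% of all genes. The cytosolic chaperonin had 5 of 8 subunits above 0 and 3 below 0, with Cct8 at 0.31 (SE 0.14). Of 8 mitochondrial quality control genes 6 were above 0, among them the proteases Yme1l1 at 0.51 (SE 0.22) and Htra2 at 0.64 (SE 0.28), and Lonp1, the matrix protease, was at -0.58 (SE 0.22). Of the genes named here, Bag1 (57.5 to 72.4 against 106 to 135 CPM), Fkbp5 (53.0 to 72.3 against 73.9 to 109.6 CPM), Cct8 (192 to 216 against 158 to 191 CPM) and Yme1l1 (212 to 249 against 116 to 192 CPM) divided between the libraries of high Malat1 and the rest.

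The genes whose pattern was most like each of 3 members were ranked by Pearson's r of log2 CPM over 12 libraries, among 10193 genes that averaged 10 CPM or more. For Hspa1a they were Csrnp1 (r = 0.93), Slc25a25 (0.92), Errfi1 (0.92), Ccn1 (0.90) and N4bp2l1 (0.88). Without the libraries ctrl_AA14 1 and cre_AA14 1, r was 0.90 for Slc25a25 and 0.79 for Csrnp1 but 0.23 for Ccn1. For Hspa8 they were Aimp2 (0.86), Ahsa1 (0.86), Zdhhc24 (0.84), Dis3l (0.83) and Hivep2 (0.83), and Ahsa1 encodes an activator of HSP90. For Hspd1 they were Rab1a (0.88), Rbm8a (0.85), Bpnt1 (0.85), Sec63 (0.80) and Ubxn8 (0.78). The 10 members were left out of the ranking. These values describe libraries that share groups and library state, and the points of high HSP70 weigh heavily in those of Hspa1a.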

How the data were processed

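RNA sequencing of pituitary gave 12 libraries. For each library the authors deposited 1 table of whole-number gene counts. Per the labels' protocols, 150 bp paired reads from a NEBNext Ultra library kit were mapped with HISAT2 2.0.0. GRCm38, DESeq 1.8.3 and featureCounts 1.5.0-p3 are named, per the submitters' processing notes. The annotation release, strand setting and rule for reads shared by genes were not given in the sources used here. Of 55421 gene IDs, 55154 matched a symbol. Gene positions and exon lengths are from GENCODE M21 (GRCm38), and promoter sequences from RefSeq (GRCm38.p6).

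Genes were filtered with filterByExpr in edgeR 4.0.16 (22630 kept), libraries were scaled with TMM factors, and quasi-likelihood F tests were run with all 12 libraries in 1 model of group means. P-values were adjusted by Benjamini-Hochberg over all genes, at a threshold of 0.05. SE was taken as the size of the log2 fold change over the root of its F statistic. CPM uses the same scaling. Patterns were compared on log2(CPM + 0.5). The steps were tested on simulated counts. Alternatives were RLE factors, DESeq2 1.42.0, limma-voom (limma 3.58.1), no filter, a fit of the compared groups only, the replicate number as a block, the HSP70 pair summed, and each library left out; the fit without ctrl_AA14 1 and cre_AA14 1 was added after seeing the data.

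The members, gene lists and tests were chosen with earlier results of these data known. All 10 members are always named, as are Hsf1, Hsf2, Hspa5, Hspa9, Hsp90ab1, Cryab and Hspb8. From each other list up to 4 genes of smallest unadjusted p were taken, of which the text gives a part. Dnaja1 and Egr1 lie outside that rule and were named after their values were seen.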

Additional observations from a re-analysis of the deposited data

How the results depend on the processing

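Over the 10 members and 5 comparisons, leaving out 1 library kept direction and side of the threshold for 305 member fold changes and changed the sign of 55, and the other settings kept both for 349, changed the sign of 30 and took 1 past the threshold. With 1 library left out, the lowest and highest log2 fold changes for AA14 with the control virus were 0.15 and 2.85 (Hspa1a), 0.12 and 3.06 (Hspa1b), -0.67 and 1.12 (Dnajb1), -0.029 and 0.42 (Hsph1), -0.27 and 0.090 (Hspb1), -0.070 and 0.097 (Hspd1), 0.010 and 0.60 (Hspa8), 0.058 and 0.38 (Hsp90aa1) and 0.15 and 0.40 (Hspe1). For AA14 after cre virus they were -1.09 and 4.38 (Hspa1a), -0.95 and 4.71 (Hspa1b), -0.32 and 0.90 (Dnajb1), -0.70 and 0.63 (Bag3), 0.073 and 1.51 (Hspb1), -0.45 and -0.066 (Hspa8), 0.071 and 0.18 (Hspd1) and 0.13 and 0.34 (Hspe1). For the difference of AA14 effects they were -3.39 and 3.66 (Hspa1a) and -3.45 and 4.02 (Hspa1b), for cre under vehicle -0.26 and 0.16 (Hspb1), and for cre under AA14 -2.55 and 4.49 (Hspa1a) and -2.53 and 4.94 (Hspa1b). With limma-voom, signs changed for Hspb1 in AA14 with control virus (0.082), Hspa1a (-0.088), Dnajb1 (-0.12) and Bag3 (-0.26) in AA14 after cre virus, Hspa1a (-1.31) and Hspa1b (-1.14) in the difference, Hspb1 in cre under vehicle (0.23) and Hspa1a in cre under AA14 (-0.064). The cause was not tested. Without both ctrl_AA14 1 and cre_AA14 1, values were -0.67 (Dnajb1) and -0.070 (Hspd1) for AA14 with control virus. After cre virus they were -1.09 (Hspa1a), -0.95 (Hspa1b), -0.32 (Dnajb1) and -0.70 (Bag3). They were -1.25 and -1.07 (Hspa1a and Hspa1b) for the difference and -0.41 and -0.15 for cre under AA14. With no low-count filter Hspd1 was -0.0037 for AA14 with control virus.

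The number of members called was 0 under every setting tried except the fit of the compared groups only, which called 1 (Bag3, -1.17) for AA14 with control virus. DESeq2 gave Hspa1a and Hspa1b no p-value in that comparison, which was counted as not called. Genes called in all moved more. For AA14 with control virus the count was 1, against 2162 with DESeq2, 3409 with limma-voom, 2 with no filter, 2266 with the compared groups only and 1 to 5 with a library left out. For AA14 after cre virus it was 0, against 14 with DESeq2, 1 without both libraries and 0 to 2 with 1 left out. For the difference it was 1, against 27 with DESeq2, 0 with limma-voom, 2 without both libraries and 1 to 3. For cre under vehicle it was 1, against 2 with RLE factors, 19 with DESeq2, 2 with limma-voom and 1 to 3. For cre under AA14 it was 0, against 34 with DESeq2, 1 with the compared groups only, 1 without both libraries and 0 to 1. The cause was not tested.

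No clear pairing by replicate number was seen: of 18 pairs of same-numbered libraries, 5 had a correlation of their deviations above 0.1 (range -0.51 to 0.33). Library states such as that of Malat1 enter the same deviations, so this check cannot exclude a pairing. With the replicate number as a block, 0 members were called in each comparison, genes called were 1, 0, 1, 1 and 0 in the order above, and 1 of the printed directions changed, that of Bag3 for AA14 after cre virus (-0.00039).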
